A study of Mus musculus with 3 samples.

Results

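Interferon-stimulated genes are the genes that cells switch on when type I interferon binds its receptor, and 43 of them were followed here in messenger RNA of mouse regulatory T cells (Tregs). The members were taken by gene name from a list of interferon-stimulated genes, and all 43 were found among the 55536 genes of the deposited gene tables. Tregs are T cells of the CD4 lineage that hold other immune cells in check, and their identity rests on Foxp3, a transcription factor. The labels give 1 group and 1 biological replicate of Tregs that had gone through inflammation, from male adult mouse aged 6 months, of the strain Foxp3CreERT2 x Rosa26YFP. In this strain CreERT2 is made where Foxp3 is expressed, and a YFP reporter sits at Rosa26. The sources used here do not give the agent of the inflammation, its duration, any tamoxifen treatment, the tissue or the number of animals behind the sample. Polyadenylated RNA was sequenced in 3 technical replicates, which are called library 1, library 2 and library 3 after their replicate numbers. Where these were split is not stated in the labels, so the spread between them may be wholly technical. There was no group of Tregs without inflammation among the samples analysed here, and the values below are levels in 1 sample and differences between its libraries.

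Type I interferons bind a receptor made of Ifnar1 and Ifnar2, which carries the kinases Tyk2 and Jak1. The kinases activate transcription factors that join Irf9 to form the complex ISGF3. ISGF3 binds a short DNA element, the interferon-stimulated response element (ISRE), near the start of its target genes. Interferon gamma acts through a different element, the GAS, and many genes respond to both kinds of interferon. The products sense viral nucleic acid, degrade or sequester viral RNA, hold virus at the cell surface, or feed back on the pathway itself.

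The promoters were searched for these elements because ISGF3 reads them directly. RefSeq promoter entries (build GRCm38.p6, 250 bases before to 50 after the gene start) were at hand for 31 of the 43 members. Rtp4, Ly6a, Ly6e, Ifi27l2a, Usp18, Mx2, Oas2, Zbp1, Parp9, Dhx58, Mx1 and Parp14 had no entry. The ISRE letters were GAAA, any 2 bases, then GAAA, searched on both strands, so that they also read as TTTC, any 2 bases, TTTC. A gene was counted if any of its promoter entries held them, which was so for 16 of the 31 members (51.6%), against 3.99% of the 27025 genes in the table and 3.44% of its 32851 promoters. With the requirement that the letters be followed by CT, 9 members (29.0%) and 0.303% of all genes held them. The GAS letters TTCNNNGAA were present in 7 of the 31 (22.6%) and in 9.55% of all genes. A letter match describes these bases and is not a measured binding site.

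Stretches upstream of 8 members are shown because they carry the ISRE letters in 4 of the 5 Ifit members and in 4 members that varied in whether and how they differed between the libraries. The promoter entry of the remaining Ifit member, Ifit2, holds the GAS letters and not the ISRE letters. The sequences run 5′ to 3′ on the strand of the gene, and capitals mark the ISRE letters, including overlapping matches. The windows are chr19:34640770-34640828 (+) for Ifit1, chr19:34602048-34602087 (-) for Ifit1bl1, chr19:34583358-34583431 (+) for Ifit3, chr19:34607754-34607827 (+) for Ifit3b, chr4:156200860-156200911 (-) for Isg15, chr12:26456548-26456587 (-) for Rsad2, chr5:120777710-120777749 (-) for Oas3 and chr8:71537572-71537617 (-) for Bst2, all on GRCm38.p6 and all before the annotated start.
Ifit1: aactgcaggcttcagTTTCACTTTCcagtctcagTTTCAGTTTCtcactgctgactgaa
Ifit1bl1: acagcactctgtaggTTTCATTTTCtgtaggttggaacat
Ifit3: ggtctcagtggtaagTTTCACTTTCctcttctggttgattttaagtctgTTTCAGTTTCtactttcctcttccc
Ifit3b: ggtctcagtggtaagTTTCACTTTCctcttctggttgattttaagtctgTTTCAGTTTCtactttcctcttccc
Isg15: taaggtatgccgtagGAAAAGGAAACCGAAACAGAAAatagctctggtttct
Rsad2: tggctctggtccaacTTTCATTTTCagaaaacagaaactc
Oas3: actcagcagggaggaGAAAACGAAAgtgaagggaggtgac
Bst2: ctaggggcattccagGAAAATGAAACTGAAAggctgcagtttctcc

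The first of the capital letters lies 104 bases before the start in Ifit1 and Ifit1bl1, 156 in Ifit3, 188 in Ifit3b, 78 in Isg15, 120 in Rsad2, 75 in Oas3 and 130 in Bst2. The windows of Ifit3 and Ifit3b are identical, and the longest run of identical bases between their promoter entries is 169 of 300. Isg15 holds 3 overlapping matches in a row. Reads of Ifit3 and Ifit3b could be split between the copies by the counting model, and the posterior SD of the count, which measures that uncertainty, reached 12.9% of the count for Ifit3b and 3.59% for Ifit3.

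The libraries held 11829501, 14136139 and 10667765 estimated counts on genes. Treg markers were present, with 7 of 7 detected and a summed level of 2780, 2490 and 2810 TPM in libraries 1, 2 and 3, where TPM is a level per transcript length, scaled to the library total. Of these, 5 were lowest in library 2, among them Foxp3 itself at 18.0, 14.3 and 16.0 TPM. Foxp3 did not pass the test of a difference between libraries that is described below (adjusted p 0.117). The other 6 markers passed it, beside 45.7% of all genes and 73.3% of those at 100 TPM or more. Of these 6, Il2ra, at 85.6, 63.3 and 98.1 TPM, and Ctla4, at 146, 96.4 and 130, were lowest in library 2. Ikzf2 and Tnfrsf18 were also lowest there, while Cd4 and Cd3e were lowest in library 3. The summed markers of 6 of the 7 other cell types listed were lowest in library 1, those of plasmacytoid dendritic cells being lowest in library 2. The summed B cell markers stood at 20.5, 44.5 and 56.5 TPM, the plasma cell markers at 85.8, 363 and 458, the erythroid markers at 3.81, 44.3 and 260, and the macrophage and monocyte markers at 9.79, 52.9 and 23.1. Most of the plasma cell sum was Igkc, at 45.3, 308 and 405 TPM, and Jchain was at 0.99, 19.5 and 22.3. The other plasma cell markers were highest in library 1, Xbp1 at 38.9, 35.8 and 30.3 TPM and Sdc1 at 0.58, 0.24 and 0.11.

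Nearly all of the interferon-stimulated genes were detected in this sample, at levels that ranged from low to very high. Of the 43, 42 were detected, which means at 1 TPM or more in all 3 libraries, against 22.5% of all genes. The exception was Oasl1, an oligoadenylate synthetase-like protein, at 0.79, 1.54 and 1.24 TPM, so that library 1 alone was under the limit. The median of the members' mean levels was 31.7 TPM, against 15.6 TPM over all detected genes, and 30 members were above that value. The members covered a wide range: the highest level, of Ly6e, was 1290-fold that of the lowest, Oasl1. A total of 9 members had 100 TPM or more, 32 had 10 or more and 11 had less.

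**Figure D1:**
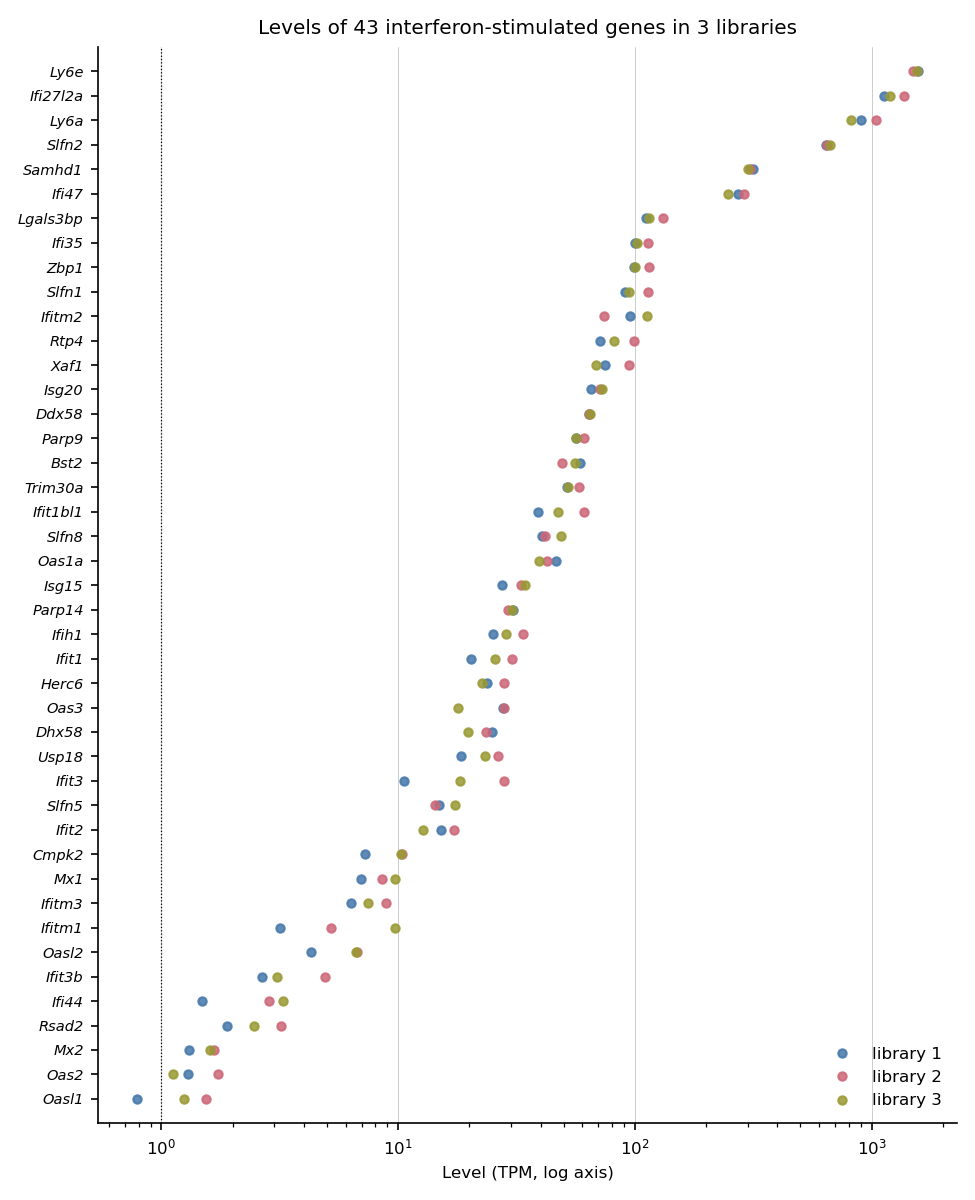
Level of each of the 43 interferon-stimulated genes in TPM on a log axis, with 1 point for each of the 3 libraries, sorted by mean level. The dotted line marks 1 TPM, and only Oasl1 in library 1 lies below it.

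By TPM a few genes made up most of the summed level. Ly6e, Ifi27l2a, Ly6a and Slfn2 together held 68.8%, 68.1% and 68.3% of the members' summed TPM in libraries 1, 2 and 3, where the sums were 6176, 6688 and 6203 TPM. This lead rests on the estimated counts: without division by length, these 4 genes held 52.1%, 50.3% and 52.1% of the members' estimated counts but 21.2%, 18.0% and 22.2% of their counts in a second deposited table of whole-number counts. The cause of this difference between the tables was not tested. The median coefficient of variation of a member over the libraries was 12.3%. Among the 42 pairs of neighbours in the order of levels, 26 changed order between libraries, so that many adjacent ranks are not separated by these data. The plot of levels by gene shows the 4 leading genes well apart from the rest, while the points of neighbours further down overlap.

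On scaled counts most members were highest in library 2 and lowest in library 1 or library 3, though 12 of the 43 did not pass the test of a difference between libraries. Ifit3 had the largest log2 ratio of library 2 over library 1, at 162, 517 and 258 estimated counts or 10.5, 27.9 and 18.3 TPM. Usp18, Ifit1, Ifit1bl1, Rsad2 and Oasl2 were likewise lowest in library 1 and highest in library 2. Each gene was tested for a difference between the 3 libraries beyond counting noise, by a Poisson chi-square test on counts scaled to library size by TMM, adjusted by Benjamini-Hochberg over 13970 genes. Of the 43 members, 31 passed an adjusted p of 0.05 (72.1%), against a background of 45.7% of all genes tested. That background rises with level. At 100 TPM or more 7 of 9 members passed, near the 73.3% of all tested genes of that level. From 10 to 100 TPM it was 17 of 23 members against 50.1%, and under 10 TPM 7 of 11 against 35.2%. These p-values set the libraries against counting noise and say nothing of other animals.

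Library 2 held the highest scaled count for 33 members (76.7%), library 3 for 6 and library 1 for 4. Over all genes tested, library 2 was highest for 32.3%. Library 1 held the lowest count for 24 members (55.8%), library 3 for 16 and library 2 for 3, where library 1 was lowest for 31.7% of all genes tested. Of the 31 called members, 26 were highest in library 2, against 33.9% of all called genes, and 17 were lowest in library 1, against 29.6% of all called genes. Over all genes tested, 15.5% were called and highest in library 2, and 13.5% were called and lowest in library 1. Both held for 15 called members, namely Ifi27l2a, Ifi35, Slfn1, Rtp4, Ifit1bl1, Ifih1, Ifit1, Usp18, Ifit3, Cmpk2, Mx1, Oasl2, Ifit3b, Ifi44 and Rsad2, against 5.83% of all genes tested. Another 11 called members were highest in library 2 and lowest in library 3, among them Ly6a, Ifi47, Zbp1 and Oas3.

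**Figure D2:**
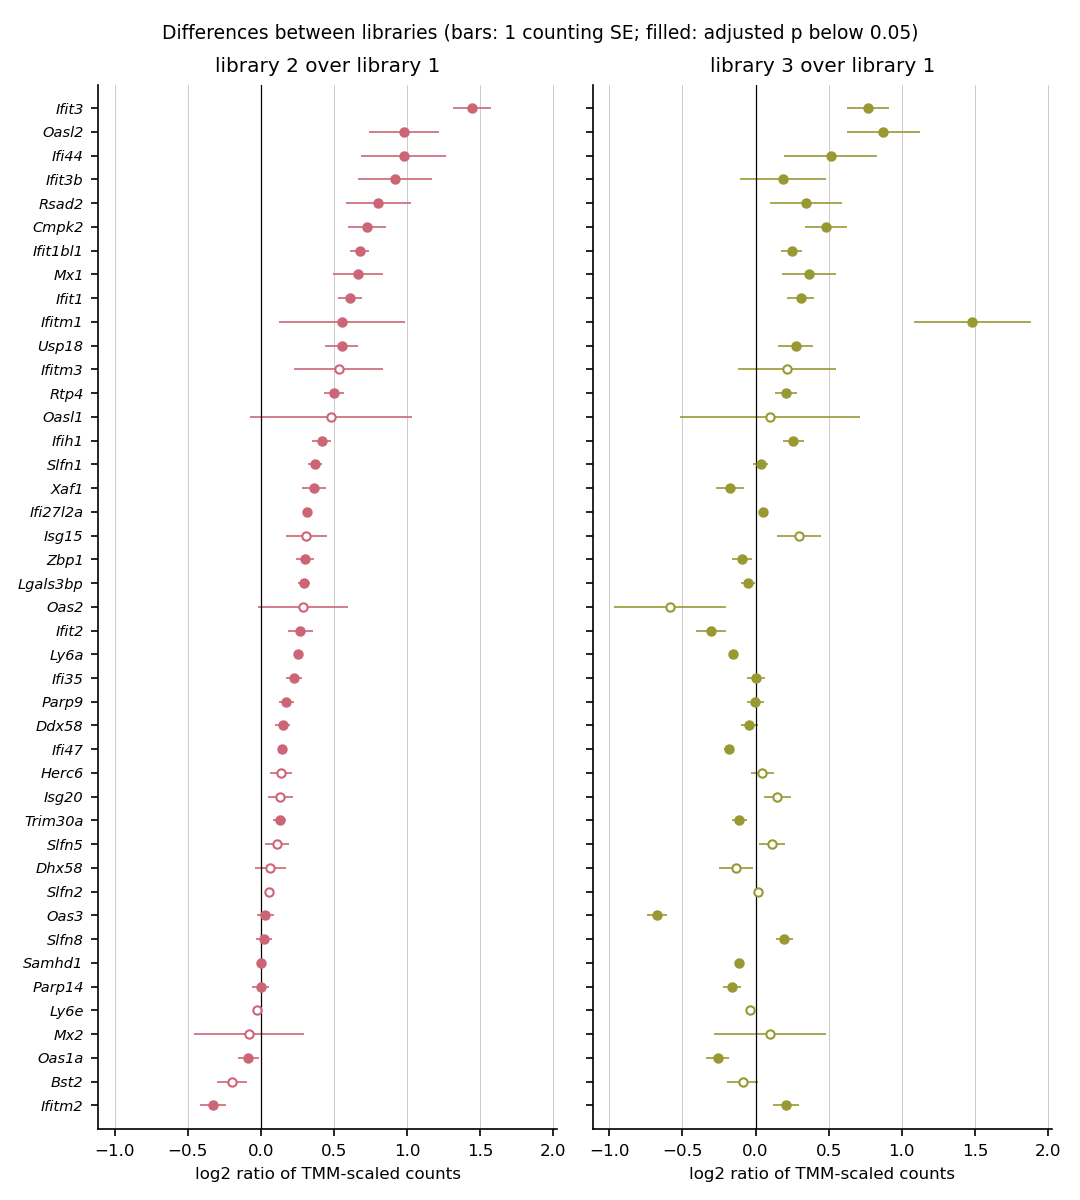
Log2 ratio of TMM-scaled estimated counts for each member, library 2 over library 1 on the left and library 3 over library 1 on the right, with bars of 1 counting standard error and filled points for an adjusted p below 0.05 over the 3 libraries. On the left 37 of 43 points lie above 0, and on the right 26 do.

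The size of the shift was modest for most members. The median log2 ratio of library 2 over library 1 was 0.29 over the members and -0.00 over all genes tested. It was above 0 for 37 of 43 members, against 49.7% of all genes tested. For 26 members it exceeded 2 counting standard errors, and Ifitm2 alone lay below 0 by as much. Library 3 over library 1 had a median of 0.05, with 26 members above 0. Library 3 over library 2 had a median of -0.24, with 7 above 0. The median fold between the highest and the lowest library was 1.31 for the members and 1.26 for all genes tested. Chi-square per degree of freedom, whose mean is about 1 under counting noise alone, had a median of 8.78 over the members and 3.28 over all genes tested.

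In pairs of libraries, 26 members differed between libraries 1 and 2, and 25 of them were higher in library 2, where the background was 21.3% of genes called. Between libraries 2 and 3, 26 members differed and 23 were higher in library 2, with a background of 34% called. Libraries 1 and 3 differed in 16 members, 9 higher in library 3 and 7 higher in library 1, against 30.7% of genes called. The count of called members therefore fell from 31 to 16 when library 2 was left out. The 15 members whose call rested on library 2 were Ifit3b, Ifi27l2a, Ifi35, Ifi44, Ifitm2, Ddx58, Mx1, Rsad2, Usp18, Xaf1, Zbp1, Trim30a, Parp9, Lgals3bp and Slfn1. Without library 1, Ifi44, Oas1a, Oasl2, Mx1, Rsad2 and Cmpk2 were no longer called, and Oas2 was. Without library 3, Ifitm1, Oas1a, Oas3, Samhd1, Parp14 and Slfn8 were no longer called, and Slfn2 was. Some calls also depended on the scaling. With total counts in place of TMM, Ddx58, Oas1a, Samhd1 and Parp14 did not pass, while Ly6e and Slfn2 did. All 3 comparisons share libraries with one another.

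**Figure D3:**
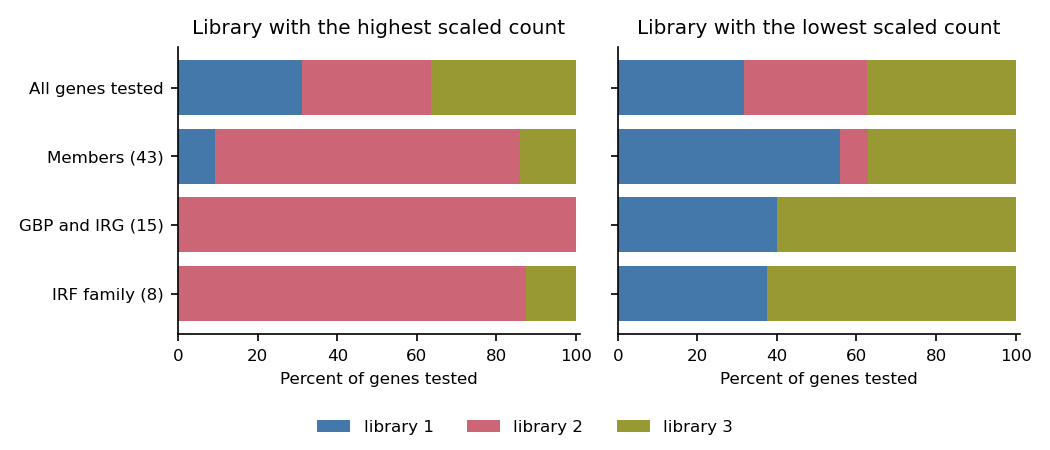
Percent of genes whose TMM-scaled count was highest (left) or lowest (right) in each library, for all genes tested, the 43 members and 2 other gene lists, with the number of genes in brackets. Library 2 takes 76.7% of the members on the left and 32.3% of all genes tested.

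On scaled estimated counts this order of libraries was seen at high and at low levels. Among members at 100 TPM or more, 8 of 9 were highest in library 2, against 46.2% of all tested genes of that level. From 10 to 100 TPM this was so for 16 of 23, against 34.6%. Under 10 TPM it was so for 9 of 11, against 26.9%, and there the members' median log2 ratio of library 2 over library 1 was 0.66, compared with -0.04 for all genes. The median ratio was thus widest among the lowest members, which have the fewest counts behind them. At 100 TPM or more the whole-number counts gave another order for several members. There Ly6e, Ifi27l2a, Ly6a and Slfn2 were highest in library 3 and lowest in library 2. Samhd1 and Ifi47 were highest in library 1, while Lgals3bp, Ifi35 and Zbp1 were highest in library 2.

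Macrophage and monocyte markers followed the same order of libraries. Of these 5 markers, 4 were lowest in library 1 and highest in library 2, and Lyz2, a lysozyme of myeloid cells, had 17, 441 and 123 counts. Markers of plasmacytoid dendritic cells, the main producers of type I interferon, summed to 71.8, 67.4 and 83.0 TPM, of which the member Bst2 gave most, and their defining gene Siglech had 7, 15 and 5 counts. The others listed were Ly6d with 3, 79 and 57 counts, Tcf4 with 62, 77 and 124 and Ccr9 with 248, 147 and 268. These 3 passed the test, beside 45.7% of all genes, and did not share 1 order of libraries. Tyrobp, an adaptor of NK and myeloid cells, had 7, 67 and 17 counts. The NK markers listed with it did not share its order. Prf1 had 154, 627 and 130 counts, Klrb1c had 9, 5 and 28, and Ncr1 had 6, 4 and 2. Hba-a2 in library 1 was the one listed marker at 0 counts. The part of other cells in the members' differences was not tested. In bulk RNA, fewer cells of a type and less RNA per cell cannot be told apart.

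Among the Ly6 surface proteins, Ly6a differed and Ly6e did not pass the test. Ly6e, a lipid-anchored protein that restricts the entry of some viruses, was the highest member by TPM, at 1570.1, 1499.9 and 1551. In the whole-number counts, which are not divided by length, it ranked 5, 7 and 5 among the members in libraries 1, 2 and 3, so its lead depends on the estimated counts. The 3 values lie within 1.03-fold of each other on the scaled counts, and the adjusted p was 0.104. Ly6a, the stem cell antigen Sca-1, stood at 900.4, 1039.8 and 822 TPM. Its chi-square per degree of freedom, 145, was above that of every other member, with a fold of 1.33 between library 2, the highest, and library 3, the lowest (adjusted p 8.26e-62). Ly6a lay below Ly6e in every library, by 0.75 ± 0.20 on the log2(TPM + 0.1) scale (mean ± SD over 3 libraries).

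Of the members with less defined functions, all 3 differed and all 3 were highest in library 2 on scaled estimated counts. Of all genes 45.7% were called, and 73.3% of those at 100 TPM or more, the level of Ifi27l2a and Ifi47. In the whole-number counts none of the 3 passed (adjusted p of 0.0578 for Ifi27l2a, 0.582 for Ifi47 and 0.44 for Ifi44), and library 2 was lowest for Ifi27l2a and library 1 highest for Ifi47. Ifi27l2a, a small hydrophobic interferon-inducible protein, stood at 1132.6, 1367.8 and 1197.3 TPM, with library 2 above the other libraries (fold 1.24, adjusted p 2.992e-30). Ifi47, an immunity-related GTPase, stood at 271, 290 and 248 TPM, highest in library 2 and lowest in library 3. Ifi47 lies at chr11:49076587-49096974, and the whole of it overlaps the annotated olfactory receptor gene Olfr56 on the same strand, which was at 0.48 TPM. Ifi44, a low gene, had 36, 83 and 48 counts, lowest in library 1.

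The Schlafen genes control growth and translation in lymphocytes, and 2 of 4 differed, a share near the 45.7% of all genes. All 4 were lowest in library 1 on TMM-scaled counts, but Slfn5 was lowest in library 2 by TPM, and Slfn2 and Slfn5 were lowest in library 2 in the whole-number counts (adjusted p 5.719e-05 and 0.489). Slfn2, which is needed for T cells to stay quiescent, was at 645, 650.0 and 665 TPM, and its adjusted p was 0.060. Slfn1 stood at 90.6, 114 and 94.5 TPM, with library 2 alone high (log2 ratio of library 2 over library 1 of 0.37 ± 0.05, counting standard error). Slfn8 was at 40.6, 41.7 and 48.8 TPM, with library 3 alone high, and Slfn5 at 14.9, 14.3 and 17.3 TPM did not pass. Slfn1 lay 2.72 ± 0.18 log2 units below Slfn2 and Slfn5 1.49 ± 0.05 below Slfn8.

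The antiviral effectors were the largest group, with 20 members, of which 14 differed, beside 45.7% of all genes, and 14 were highest in library 2 on scaled counts. In the whole-number counts 5 of them passed, beside 21.5% of all genes tested there. Their median level was 12.2 TPM and their median fold between libraries 1.55, where all tested genes under 10 TPM had a median fold of 1.52 and those from 10 to 100 TPM 1.18. Samhd1, which depletes the nucleotides that viruses need, led them at 316, 305 and 301 TPM, with library 3 lowest by 1.08-fold (adjusted p 5.107e-05). Isg20, an exonuclease for single-stranded RNA, was at 65.0, 71.5 and 72.8 TPM and did not pass. Bst2, or tetherin, which holds budding virus on the cell, was at 58.4, 49.2 and 56.1 TPM, and it too did not pass.

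The Ifit genes bind the ends of foreign RNA, and all 5 members differed on estimated counts, beside 45.7% of all genes. In the whole-number counts Ifit3b did not pass the same test (adjusted p 0.869), while Ifit1, Ifit2, Ifit3 and Ifit1bl1 did. Of all genes tested in those counts 21.5% passed. They lie side by side on chromosome 19, from 34550694 at the start of Ifit2 to 34650009 at the end of Ifit1 (mm10), and 4 of the 5 were lowest in library 1 and highest in library 2. Ifit3, at chr19:34583531-34588731, differed by 2.72-fold, with a log2 ratio of library 2 over library 1 of 1.44 ± 0.13 (counting standard error) and an adjusted p of 7.274e-30. Its near copy Ifit3b had 47, 104 and 50 counts, with library 2 high and the other libraries close to each other. Ifit1bl1 stood at 39.1, 60.7 and 47.2 TPM and differed by 1.60-fold.

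Ifit1, which recognises capped RNA that lacks a host methyl mark, was at 20.4, 30.2 and 25.7 TPM, in the same order as Ifit1bl1. Ifit2 was the exception in the cluster, at 15.2, 17.2 and 12.7 TPM, with library 3 lowest. Ifit3 exceeded Ifit3b by 2.32 ± 0.33 log2 units, Ifit1 exceeded Ifit3 by 0.51 ± 0.42 and Ifit2 by 0.75 ± 0.30, and Ifit1 lay 0.94 ± 0.06 below Ifit1bl1. The gap between Ifit1 and Ifit3 was not steady: it was 0.94 in library 1 and 0.11 in library 2.

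The oligoadenylate synthetases make a signal that switches on RNase L, and their order of libraries varied. Oas1a was at 46.4, 42.4 and 39.5 TPM, highest in library 1. Oas3 was at 27.8, 28.1 and 17.8 TPM, with library 3 alone low by 1.63-fold (adjusted p 6.222e-26). Oas2 had only 37, 53 and 23 counts and did not pass. Oasl2 had 52, 120 and 89 counts, lowest in library 1, and Oasl1 had 11, 18 and 11. Oas1a exceeded Oas2 by 4.87 ± 0.29 log2 units, Oas2 lay 4.04 ± 0.24 below Oas3, and Oasl1 2.22 ± 0.16 below Oasl2.

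The Mx GTPases, which block the replication of viruses such as influenza, were low. Mx1 had 112, 208 and 135 counts, highest in library 2, and was at 6.98, 8.58 and 9.72 TPM, where library 3 is highest, so that the order depends on the scale. Mx2 had 28, 31 and 28 counts and did not pass. Mx1 exceeded Mx2 by 2.39 ± 0.12 log2 units.

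The Ifitm proteins sit in membranes and hinder the fusion of enveloped viruses, and 2 of the 3 members were not highest in library 2. Ifitm2 was at 95.5, 73.9 and 112 TPM, lowest in library 2 by 1.45-fold. Ifitm1 had 18, 31 and 47 counts, highest in library 3 by 2.80-fold. Ifitm3 had 36, 61 and 39 counts and did not pass. Ifitm2 exceeded Ifitm3 by 3.61 ± 0.50 log2 units, while Ifitm1 minus Ifitm3 was -0.45 ± 0.73 and changed sign between libraries.

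Rsad2, or viperin, makes a nucleotide that stops viral RNA synthesis, and the neighbouring gene Cmpk2 encodes a nucleotide kinase. Rsad2 had 64, 131 and 76 estimated counts and Cmpk2 had 184, 357 and 240, both lowest in library 1 and highest in library 2. In the whole-number counts neither passed (adjusted p 0.083 for Rsad2 and 0.43 for Cmpk2), and Cmpk2 was highest in library 3. Rsad2 lay 1.85 ± 0.18 log2 units below Cmpk2.

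Of the sensors of viral nucleic acid, 3 of 4 differed, beside 45.7% of all genes, and all 4 were highest in library 2 on scaled counts. By TPM, Dhx58 was highest in library 1 and Ddx58 in library 3. Zbp1, which senses left-handed nucleic acid and can trigger cell death, was at 99.3, 114 and 100.0 TPM, with library 2 alone high (fold 1.31). Ifih1, the sensor MDA5 of long double-stranded RNA, was at 25.0, 33.8 and 28.4 TPM and was lowest in library 1 (log2 ratio of library 2 over library 1 of 0.42 ± 0.06). Ddx58, the sensor RIG-I, was at 64.1, 64.3 and 64.6 TPM, which does not separate the libraries, although its 1376, 1789 and 1248 counts differed by 1.14-fold (adjusted p 0.00206). Dhx58, the regulator LGP2 of both, was at 24.9, 23.4 and 19.8 TPM and did not pass. Ddx58 exceeded Ifih1 by 1.15 ± 0.22 log2 units, and Dhx58 lay 0.35 ± 0.30 below Ifih1.

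The ubiquitin-like modifier Isg15, its ligase Herc6 and its protease Usp18 were each lowest in library 1 and highest in library 2 on the scaled counts, but Usp18 alone passed the test. Isg15 had 176, 256 and 202 counts (adjusted p 0.107). Herc6 was at 23.8, 27.9 and 22.6 TPM. Usp18, which also shuts down signalling at the interferon receptor, was at 18.4, 26.4 and 23.2 TPM, a fold of 1.46 (adjusted p 2.392e-05). Isg15 exceeded Usp18 by 0.49 ± 0.14 log2 units per length, and the sign of this difference reversed when counts were not divided by length.

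The regulators all differed, 7 of 7, and 6 were highest in library 2 on scaled counts, with a median fold of 1.18. Of all genes 45.7% differed, with 50.1% of those from 10 to 100 TPM and 73.3% of those at 100 TPM or more. In the whole-number counts 3 of the 7 passed, namely Lgals3bp, Rtp4 and Xaf1, beside 21.5% of all genes tested there. Lgals3bp, a secreted glycoprotein, was at 111, 132 and 115 TPM, with library 2 alone high (adjusted p 1.523e-16). Ifi35 was at 100.1, 113 and 102 TPM, and Rtp4, a receptor chaperone, at 71.6, 99.1 and 81.5. Xaf1, an antagonist of the apoptosis inhibitor XIAP, was at 74.5, 94.2 and 68.8 TPM, highest in library 2 and lowest in library 3.

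Trim30a, which restrains inflammatory signalling in mouse cells, was at 51.7, 58.0 and 51.9 TPM. The ADP-ribosylation proteins Parp9 and Parp14 differed by 1.13-fold and 1.12-fold, at 56.5, 60.9 and 56.7 TPM and at 30.6, 29.1 and 30.4 TPM. Parp9 exceeded Parp14 by 0.95 ± 0.10 log2 units. Parp14, the 1 regulator that was not highest in library 2, was lowest in library 3 on the scaled counts.

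Of the 18 pairs of related members compared within each library, 17 kept 1 sign in all 3 libraries. With 3 libraries an exact permutation test that flips signs, two-sided, cannot go below p = 0.25, which those 17 pairs reached (adjusted 0.265 over the 18 pairs), and Ifitm1 minus Ifitm3 had p = 0.5.

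Genes of the receptor, its kinases and the factors below them were expressed throughout. Jak1 was at 217, 252 and 210 TPM (adjusted p 8.699e-31) and Irf9 at 87.3, 95.4 and 83.4 (adjusted p 2.507e-09), each highest in library 2 and lowest in library 3. Both of these passed the test. Ifnar1, at 53.3, 48.7 and 43.1 TPM, and Ifnar2, at 33.3, 35.4 and 31.6, did not pass. Tyk2 was at 47.3, 45.9 and 45.0 TPM and Stat2 at 39.2, 37.0 and 38.6, and neither passed. The receptor genes thus gave no call, while Jak1 and Irf9 did.

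The interferons themselves were near or at 0. None of the 20 type I and type III interferon genes was detected, and 15 of them had 0 counts in every library, among them Ifnb1. The highest count was 7, of Ifnz, at 6, 7 and 0 counts. A count of 0 is compatible with up to 3 counts, or 0.254, 0.212 and 0.281 CPM (counts scaled to the library total) in libraries 1, 2 and 3, as far as counting error goes.

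Of the 8 interferon regulatory factors, 5 differed, beside 45.7% of all genes, and 7 were highest in library 2 on scaled counts. By TPM, Irf3, Irf4 and Irf5 were highest in library 3. Irf1, a target of both kinds of interferon, was at 197, 217 and 189 TPM and Irf2, its antagonist, at 167, 182 and 165. Irf3, which starts interferon transcription after viral sensing, was at 69.6, 66.5 and 71.4 TPM and did not pass. Irf7, which amplifies type I interferon production, was at 56.3, 76.0 and 67.0 TPM and was lowest in library 1, in the order of Ifit1 and Usp18.

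The GBP and IRG GTPases, cell-autonomous defence genes best known as targets of interferon gamma, were mostly highest in library 2. Of these 15 genes, 14 differed, beside 45.7% of all genes and 73.3% of those at 100 TPM or more, and library 2 was highest for all 15 on scaled counts, with library 3 lowest for 9 and library 1 for 6. Their median log2 ratio of library 2 over library 1 was 0.18, beside 0.29 for the members, and this difference between the lists was not tested. By TPM, Gbp9 was highest in library 3, at 46.9, 52.6 and 54.2. Tgtp2 was at 242, 280 and 262 TPM, Igtp at 217, 238 and 202 and Gbp4 at 177, 184 and 163. The interferon gamma receptor genes with Jak2 all differed, 3 of 3, with Ifngr1 at 314, 315 and 287 TPM, Jak2 at 16.1, 16.9 and 19.0 and Ifngr2 at 2.77, 2.73 and 6.99.

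Other genes of the pathway were called at shares near or below that of all genes, 45.7%. Of 12 genes that sense nucleic acid upstream of interferon, 10 were tested and 5 differed, and 5 of the 10 were highest in library 2 on scaled counts. The highest were Tmem173, or STING, at 257, 256 and 260.0 TPM, Myd88 at 78.0, 76.6 and 68.5 and Tbk1 at 57.3, 66.2 and 51.7. Of 8 negative regulators, a list that holds the member Usp18, 3 differed. Ptpn1 was at 140, 143 and 138 TPM, Ptpn6 at 95.5, 114 and 100.1 and Ptpn2 at 95.3, 93.5 and 97.4.

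Genes close to the members in sequence were measured as well, since reads can pass between copies. Of these 17 genes, 10 were tested and 5 differed, a share near that of all genes. Ifi27 was at 197, 232 and 241 TPM, Slfn9 at 26.7, 24.5 and 24.1 and Trim30d at 17.5, 19.7 and 21.2. Ifi27 was lowest in library 1, as was Ifi27l2a, while Slfn9 did not pass.

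The second deposited table counted genes on an earlier annotation, in whole numbers, and gave fewer calls. Its totals were 2988262, 3386154 and 2734873 counts. There 42 members were tested and 16 passed, against a background of 21.5%. Library 2 was highest for 25 members and library 1 lowest for 23, and the median log2 ratio of library 2 over library 1 was 0.20 against -0.00 over all genes tested. Both the lowest and the highest library agreed between the tables for 26 of the 42 members. A total of 13 members passed in both tables: Lgals3bp, Zbp1, Slfn1, Rtp4, Xaf1, Ddx58, Ifit1bl1, Ifih1, Ifit1, Oas3, Usp18, Ifit3 and Ifit2. Of these, 10 had the same lowest and highest library in both.

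**Figure D4:**
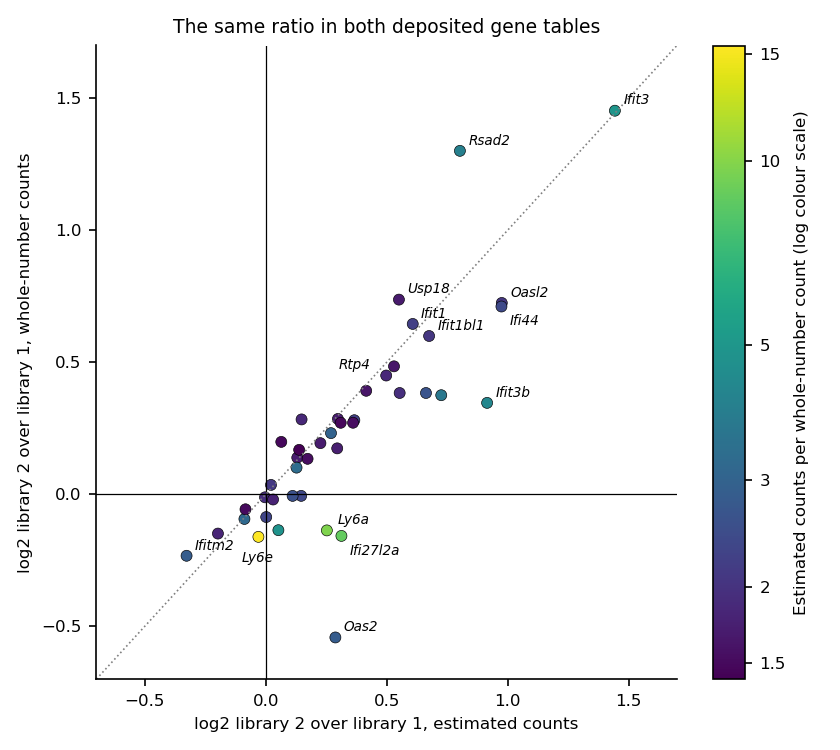
Log2 ratio of library 2 over library 1 for 42 members, in the estimated counts (x axis) and in the whole-number counts (y axis), coloured by the number of estimated counts per whole-number count. The dotted line marks equal ratios, and Ly6a and Ifi27l2a, with many estimated counts per whole-number count, lie right of 0 and below it.

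For 8 members library 2 was above library 1 in the estimated counts and below it in the whole-number counts, namely Ifi27l2a, Ly6a, Slfn2, Samhd1, Ifi47, Oas3, Slfn5 and Oas2. Ly6a had 701, 733 and 686 whole-number counts (log2 ratio -0.14, adjusted p 0.0864), so its direction and its call rest on the estimated counts. Ifi27l2a had 554, 571 and 551 (log2 ratio -0.16, adjusted p 0.0578). Ifit3 had 34, 107 and 50, a log2 ratio of 1.45, close to the 1.44 of the estimated counts. The number of estimated counts per whole-number count ranged from 15.5 for Ly6e to 1.41 for Herc6, and Ly6e had 960, 987 and 965 whole-number counts. Ly6e, Slfn2 and Herc6 passed in the whole-number counts and not in the estimated counts.

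Most members were read as protein-coding messenger RNA. In 25 members 95% or more of the gene's TPM was assigned to transcripts annotated as protein coding, and in 19 of these all of it. The remaining 18 lay under 95%, and Ddx58, Mx1, Oasl2, Mx2, Oas2 and Oasl1 under 50%. By estimated counts, not per length, the mean coding shares of these 6 were 67.9%, 26.1%, 46.3%, 29.2%, 50.1% and 65.8%. In Ddx58 the coding transcript Ddx58-201 took 38.3%, 48.6% and 41.8% of the gene's TPM in libraries 1, 2 and 3, and processed transcripts the rest. The coding share was thus highest in library 2, where the gene's counts were highest and its TPM was level with the other libraries.

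**Figure D5:**
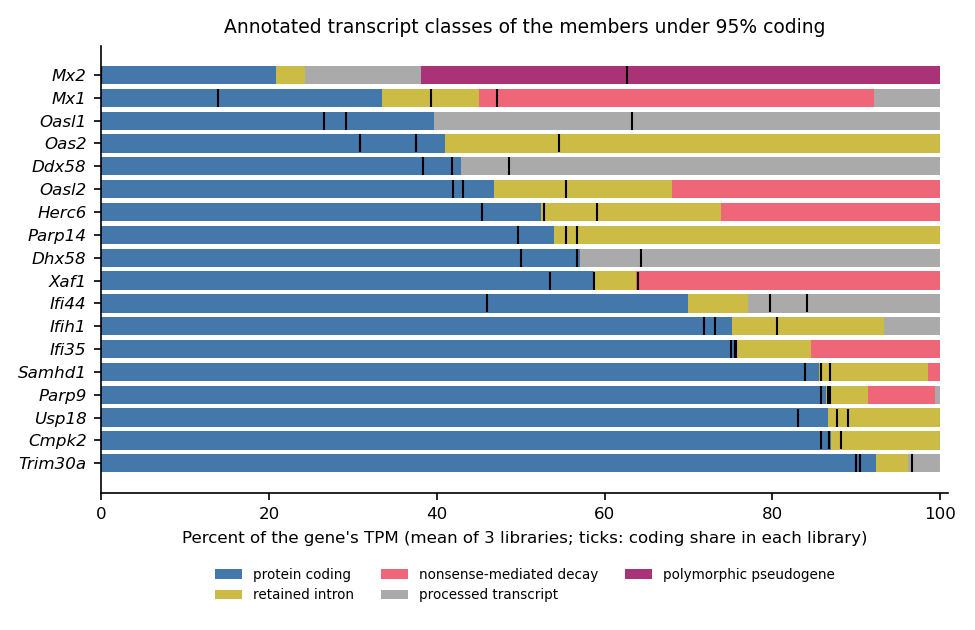
Share of each gene's TPM by annotated transcript class, as the mean of 3 libraries, for the 18 members under 95% protein coding, with black ticks at the coding share in each library. Mx2 and Mx1 lie at the low end with mean coding shares of 20.9% and 33.5%.

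In Mx1, the leading transcript, annotated for nonsense-mediated decay, took 41.0%, 45.4% and 32.8% of the TPM. Mx2 is annotated as a polymorphic pseudogene, and the transcript of that class took 100.0%, 0.01% and 85.6%, while the coding one took 0%, 62.8% and 0%. These Mx2 shares rest on 28 to 31 counts a library. In Oas2 the retained-intron transcript took 58.8% ± 12.3 (SD, n = 3), and in Xaf1 the decay transcript Xaf1-201 took 36.3% ± 5.18 (SD, n = 3). Parp14-202, a short retained-intron transcript, took 43.6% ± 3.08 (SD, n = 3) of the TPM of Parp14, whose coding share was 53.9% by TPM and 92.3% by counts.

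A total of 14 members overlap another annotated gene. The largest such neighbour by level was Gm15564, an antisense gene at 804 TPM that shares 5854 bases with Parp9, a member at 58.0 TPM. Herc6 overlaps Gm45193 on the same strand, and Usp18 overlaps the antisense Gm44148, which were at 5.01 and 6.43 TPM. The sources used here do not say whether the counting used strand, so the reads of such neighbours could be shared.

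The members with and without ISRE letters in their promoter are set side by side here. Of the 16 with the letters, 12 differed, and their median log2 ratio of library 2 over library 1 was 0.23. Of the 15 without, 11 differed, with a median of 0.30. Of the 12 members with no promoter entry, 8 differed, with a median of 0.27. Over all genes tested, 45.7% differed. Lowest in library 1 and highest in library 2 were 8 of the 16 with the letters, among them Ifit1 and Ifit3, and 8 of the 15 without, among them Ifi44, Cmpk2 and Oasl2. The same order held for 4 of the 12 with no entry. No difference between the groups was tested.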

How the data were processed

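Each of the 3 libraries of 1 sample came with a gene table, a transcript table and a whole-number gene table, all on mm10, per the labels and the deposited descriptions. The gene table holds expected counts, in which the authors' model shared multi-mapped reads, on GENCODE M21 and derived from a transcriptome alignment, per the deposited descriptions. Its TPM, per the file headers, is the level per effective length. The posterior SD of each count is a signal of read assignment, as deposited. The transcript table gives each transcript's percent of its gene's TPM, per the file headers. The whole-number counts are on GENCODE M4, as deposited. For the aligner, tool versions, read length, strand setting and duplicate handling: not given in the sources used here.

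Expected counts were rounded. With 1 group, edgeR's quasi-likelihood test had nothing to compare, so homogeneity was tested per gene by a Poisson chi-square against TMM-scaled library sizes (edgeR 4.0.16, R 4.3.3; factors 0.994, 0.976 and 1.03) for the 13970 genes whose mean count reached 10, with Benjamini-Hochberg adjustment over all of them at 0.05. It treats reads as independent. The script was tested on simulated data. DESeq2 1.42.0 gave alternative size factors. Counting standard errors and the floor of 3 counts cover counting error only. Pairs used log2(TPM + 0.1), which understates differences of low genes. Promoters come from RefSeq on GRCm38.p6.

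The members, the gene lists and the tests were chosen with earlier results of these data known. The comparisons by level and by pairs of libraries were added after the data were seen. Values in every library are given for up to 4 members of each role with the highest TPM, the 8 called members that lead by chi-square per degree of freedom, members under 1 TPM, genes of the pairs, the receptor and signalling genes and the 3 highest genes of each other list. Irf7, Trim30a, the single markers of Tregs and of other cells and the overlapping genes were also named, after their values were seen. The same holds for genes singled out for a changed call or order. Of the signalling genes, 1 is not reported here.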

Additional observations from a re-analysis of the deposited data

How the results depend on the processing

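No paired analysis was possible because there is 1 group, so no 2 groups share replicate numbers. The count of members that differed between libraries was 31. It was 31 with DESeq2 size factors and with the posterior SD added, 29 with total counts, 30 with no filter on low counts and 16 in the whole-number counts, and it ranged from 16 to 26 with 1 library left out, the lowest value without library 2. The share of all genes called was 45.7% (6388 of 13970), and also 45.7% with DESeq2 size factors. It was 40.5% with the posterior SD added, 46.1% with total counts and 21.1% of 32860 genes with no filter on low counts. In the whole-number counts it was 21.5% (2157 of 10013). Without library 1, 2 or 3 it was 34.0%, 30.7% and 21.3% (2971 of 13964 without library 3). The members' median chi-square per degree, 8.78, became 8.8, 7.6 and 8.49 with DESeq2 size factors, total counts and the posterior SD, and 4.01 to 11.4 with 1 library left out. Library 2 was highest for 25 to 33 members and library 1 lowest for 23 to 28 over the estimated, total, DESeq2, whole-number and TPM scales. Detected members numbered 35 at 5 TPM and 43 at 0.5 TPM. The median level was 27.3 TPM from the posterior means against 31.7. The coding share of the median member was 99.2% by transcript counts against 98.0%. The ISRE letters followed by CT were in 9 promoters instead of 16. Isg15 minus Usp18 reversed to -0.65 in CPM and -0.46 in CPM of the whole-number counts, neither divided by length. Parp14 was not called with no filter on low counts. Beyond settings that use fewer samples or another length scale, the cause of each change was not tested. Depth limits Oasl1, Mx2, Oas2, Ifitm1 and Ifitm3 most. The share of the 4 leading genes in the members' counts, not per length, was 51.5% ± 1.0 in the estimated and 20.4% ± 2.19 in the whole-number counts (mean ± SD over 3 libraries), a comparison chosen after seeing the data.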
